A study of Mus musculus with 15 samples.

Results

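The 9 genes described here are chemokines that attract monocytes and the receptors that read them: Ccl2, Ccl5, Ccl7, Ccl8, Ccl12, Ccr2, Cx3cl1, Cx3cr1 and Cxcl12. They were taken by symbol from a deposited table of 17271 genes, and all 9 were in it. RNA was sequenced from 15 mouse mammary tumours of the strain labelled Balbc, all labelled p53-NULL, so that every group compared lacks p53. They came from 4 models, with 4 tumours of 2151R, 2 of 2225L, 8 of 2208L and 1 of T11. Within 2208L, the titles give PBS for 4 tumours, 3day nt for 3 and ROSEN for 1, and they give no animal age and no drug. Each title of 2151R carries a different mark (a number for replicate 1, then 53ca, NT2 and NT for replicates 2 to 4), and those of 2225L carry T-Vivo with a CP library number for replicate 1 and a ROSEN library number for replicate 2. What these marks mean is not stated, so neither group can be taken as uniform replicates. The labels do not say whether the samples of a group came from separate animals, so p-values measure only the spread between these samples.

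Chemokines are small secreted proteins that steer leukocytes along a gradient. Blood monocytes of the inflammatory kind carry Ccr2 and leave the bone marrow and enter tissue in response to Ccl2, Ccl7 and Ccl12, while the patrolling kind and many tissue macrophages carry Cx3cr1, the receptor of Cx3cl1 (fractalkine). Cxcl12 retains leukocytes and progenitors in tissue through Cxcr4. In mammary tumours Ccl2 is made by tumour cells, stroma and macrophages, and the monocytes it attracts become tumour macrophages.

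The family names describe the spacing of the first cysteines, which the coding sequence shows. Each of the 7 ligands is given over 36 coding bases of its GENCODE M21 transcript, 5′ to 3′ and in frame, with the cysteine codons that name the class in capitals, to show how the members of the 3 classes differ in this stretch.
Ccl2: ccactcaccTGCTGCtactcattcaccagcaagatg
Ccl7: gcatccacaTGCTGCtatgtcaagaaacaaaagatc
Ccl12: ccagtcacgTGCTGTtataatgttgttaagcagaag
Ccl8: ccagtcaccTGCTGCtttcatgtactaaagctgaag
Ccl5: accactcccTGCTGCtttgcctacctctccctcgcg
Cx3cl1: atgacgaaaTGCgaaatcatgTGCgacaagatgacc
Cxcl12: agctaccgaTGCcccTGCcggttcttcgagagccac
The CC genes are related in sequence. Over the whole coding sequence Ccl8 and Ccl12 were 64.8% identical, Ccl7 and Ccl12 63.5%, Ccl7 and Ccl8 63.3%, and Ccl2 and Ccl12 48.3%. These percentages are matching bases over all alignment columns, gaps included. Ccl2 and Ccl12 matched at 217 of 449 columns, and Ccl8 and Ccl12 at 206 of 318. The coding sequence of Ccl2 has 447 bases and that of Ccl12 315. The lower percentage for Ccl2 therefore includes this difference in length and is not read as greater divergence. The longest run shared exactly by any pair of the 5 CC transcripts was 23 bases, between Ccl2 and Ccl7. How reads that fit more than 1 gene were assigned is not given in the sources used here, so a small exchange of reads between these genes was not tested.

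Ccl2 (chr11:82035571-82037453), Ccl7 (chr11:82045712-82047525), Ccl12 (chr11:82101845-82103400) and Ccl8 (chr11:82115185-82116799) lie on the plus strand within 81229 bp of each other in GRCm38 (mm10), as GENCODE M21 places them. Ccl5 (chr11:83525778-83530518, minus strand) is on the same chromosome. Ccr2 (chr9:124101950-124113557) and Cx3cr1 (chr9:119901616-120069879) are on chromosome 9, Cx3cl1 (chr8:94772009-94782427) on chromosome 8 and Cxcl12 (chr6:117168535-117181367) on chromosome 6. All 9 are protein-coding genes.

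Each value is a log2 ratio to a median of that gene over samples that are not named, so values can be compared between samples for a gene, and levels of different genes cannot be ranked. Medians over all genes ran from -0.29 to 0.10 by sample. Read counts are not part of the table and the depth is unknown. The PBS samples, the 3day nt samples and 2151R each have their own run of library numbers, and the model or subset cannot be told apart from the library range. Markers checked against the labels put epithelial genes (6 markers, mean value by sample) at 0.48 to 1.33 in 2208L and 0.68 to 0.89 in 2225L, and at -5.86 to -4.79 in 2151R and -8.78 in T11. Replicate 3 of 2151R and replicates 1 and 3 of 2208L 3day nt stood apart by high skeletal muscle genes (mean over 6 genes 7.99, 11.01 and 10.49, others -3.82 to 3.27). Counts for PBS and 3day nt, and the differences of some genes, are given with and without these samples.

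Against 2208L, tumours of 2151R had more Ccl2, Cx3cr1 and Cxcl12 RNA and less Ccl5 and Cx3cl1 RNA. With limma, and a threshold of 0.05 on the p-value adjusted over all genes (Benjamini-Hochberg), 3 of the 9 were higher, where 26.1% of all genes were, and 2 were lower, where 22.7% were. The other 4 (Ccl7, Ccl8, Ccl12 and Ccr2) did not pass. The median difference over the 9 was 0.46, and over all genes 0.10. Fewer cells of a type and less RNA per cell cannot be told apart in these bulk samples.

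Tumours of 2225L were called lower in Cxcl12 and Ccr2 than either of the other replicated models, and for Ccr2 the calls did not hold in every alternative. Against 2208L, 0 of the 9 were higher (15.6% of all genes) and 4 were lower (17.3% of all genes): Cxcl12, Ccr2, Cx3cl1 and Ccl5. Their median difference was -1.14 (all genes -0.04). Against 2151R, 0 were higher (22.8% of all genes) and 4 were lower (25.8% of all genes): Cxcl12, Cx3cr1, Ccr2 and Ccl2. Their median difference was -1.97 (all genes -0.10). These model comparisons share samples and are not independent of each other. The 2 samples of 2225L come from different library series (CP for replicate 1, ROSEN for replicate 2) and differed widely. Without replicate 1, a single gene, Cxcl12, was called against 2208L, and Cxcl12 (lower) and Ccl5 (higher, 1.66) were called against 2151R. A fit of 2225L and 2208L alone, or one with sample weights, also left Cxcl12 as the only call against 2208L, and sample weights left Cxcl12 and Cx3cr1 against 2151R.

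Within 2208L, 3 of the 9 (Ccl8, Ccl7 and Ccl12) were lower in PBS than in 3day nt samples, where 16.5% of all genes were, and 1 (Cx3cl1) was higher, where 17.4% were. Neither Ccl2, Ccl5, Ccr2, Cx3cr1 nor Cxcl12 passed. The median difference over the 9 was -1.33, and over all genes -0.05. Without both 3day nt samples high in muscle genes, 0 of the 9 and 98 of all genes were called, with 1 sample of 3day nt left and assumed to vary like the PBS samples.

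**Figure D1:**
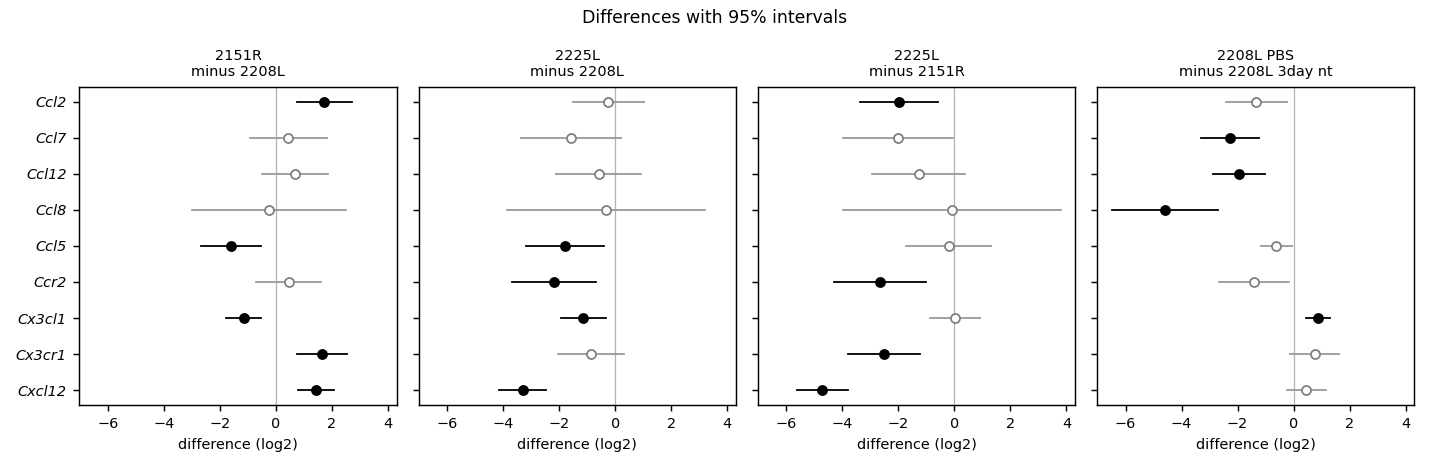
Difference in log2 value (x axis) for each of the 9 genes (y axis) in the 4 comparisons, first group minus second. Points are limma estimates, bars 95% intervals, and filled points passed an adjusted p of 0.05. Cxcl12 lies farthest to the left for 2225L minus 2151R (-4.72), and Ccl8 for 2208L PBS minus 3day nt (-4.60).

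Ccl2, the monocyte chemoattractant after which the group is named (MCP-1), separated 2151R from most 2208L tumours. Its values in 2151R were 0.68, 1.34, 0.73 and 0.43. In 2208L they were -0.93, -1.70, -1.42 and -1.70 in the PBS samples, -1.45 in the ROSEN sample and 1.03, -0.80 and -0.54 in the 3day nt samples. All of 2151R lay above all of 2208L except replicate 1 of 3day nt, which lay above 3 samples of 2151R. The difference of 2151R from 2208L was 1.73 (SE 0.45, 3.32-fold, limma adjusted p 0.00644). It was 2.23 against the PBS samples alone (limma adjusted p 0.000917) and 0.90 against the 3day nt samples alone (limma adjusted p 0.107), in a fit with a mean for each subset. In 2225L Ccl2 was -1.78 and -0.57, both below 2151R (difference -1.97, SE 0.64, limma adjusted p 0.0218). Against 2208L the difference was -0.24, with a 95% interval from -1.50 to 1.02. Without replicate 1 of 2225L the call against 2151R was lost (-1.36, limma adjusted p 0.187), as it was after quantile normalization (-1.62, limma adjusted p 0.0738). Within 2208L, the PBS samples differed from the 3day nt samples by -1.33 (limma adjusted p 0.0632), with no overlap, and it passed after quantile normalization (-1.63, limma adjusted p 0.0254).

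Ccl7 (MCP-3), the neighbour of Ccl2 on the chromosome and a ligand of Ccr2, was high in the 3day nt samples. It was 2.47, 0.76 and 1.13 there, and -0.31, -1.15, -0.72 and -1.09 in the PBS samples, with no overlap, and -0.79 in the ROSEN sample. PBS minus 3day nt was -2.27 (SE 0.43, 4.82-fold, limma adjusted p 0.0106). With replicate 2 as the only 3day nt sample, without those high in muscle genes, the difference was -1.58. In 2151R the values were 0.01, 1.37, 0.54 and 0.00, which fell between these groups and overlapped the 3day nt samples. Ccl7 in 2151R was therefore higher than in 2208L PBS (1.29, limma adjusted p 0.035), while the difference from 2208L 3day nt was -0.97 (limma adjusted p 0.116) and that from all of 2208L 0.44 (limma adjusted p 0.593). The 2225L samples were at -2.29 and -0.78, and neither model comparison with them passed.

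Ccl12 (MCP-5), a mouse ligand of Ccr2, repeated the split within 2208L. It was -1.08, -1.26, -1.02 and -2.58 in PBS samples and 0.56, 0.22 and 0.60 in 3day nt samples, again without overlap, and -0.77 in the ROSEN sample. PBS minus 3day nt was -1.95 (SE 0.39, 3.86-fold, limma adjusted p 0.0125), and the call was lost without replicate 3 of 3day nt (-1.88, limma adjusted p 0.0542). With replicate 2 as the only 3day nt sample, without those high in muscle genes, the difference was -1.71. Values of 0.00, 0.56, 0.09 and -0.56 placed 2151R near the 3day nt samples. They were higher than in 2208L PBS by 1.51 (limma adjusted p 0.00913), and the difference from 3day nt was -0.44 (limma adjusted p 0.417). In 2225L Ccl12 was -1.99 and -0.52, within the range of 2208L.

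Ccl8 (MCP-2), which in mouse signals through Ccr8, showed the largest difference of the 9 within 2208L. The 3day nt samples were at 4.73, 4.20 and 3.84, above every other sample of the series. The PBS samples spread widely, at 0.35, -1.83, 1.44 and -1.35, and the ROSEN sample was at -1.12. PBS minus 3day nt was -4.60 (SE 0.80, 24.3-fold, limma adjusted p 0.00832). Replicate 2 of 3day nt, whose muscle gene mean of 2.25 lay within the PBS range, was among the high samples, and with it as the only 3day nt sample the difference was -4.55 (limma adjusted p 0.184). In 2151R the values were 0.00, 2.75, 1.17 and 0.19 and in 2225L 0.21 and 1.68, inside the spread of 2208L. The sign of the difference between 2151R and 2208L turned with the subset: 1.38 against PBS (limma adjusted p 0.16) and -3.23 against 3day nt (limma adjusted p 0.00712).

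**Figure D2:**
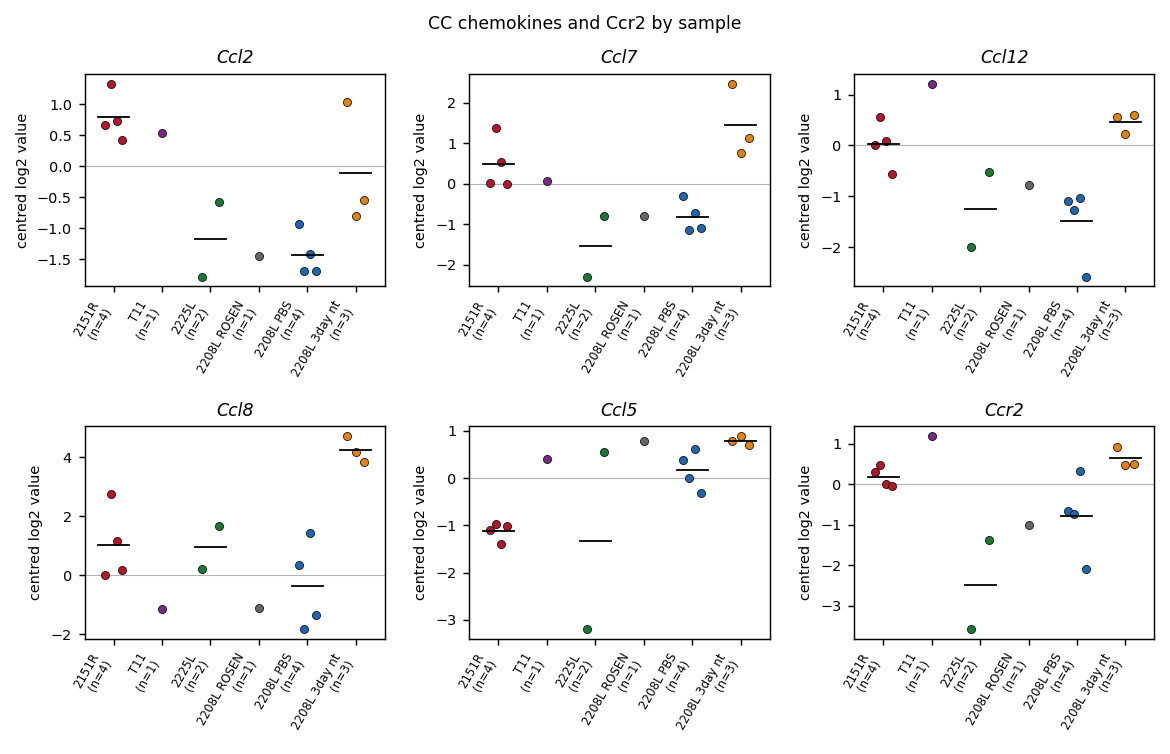
Centred log2 value (y axis) of Ccl2, Ccl7, Ccl12, Ccl8, Ccl5 and Ccr2 in each sample, by model or subset (x axis). Points are samples and lines are means. The 3day nt samples of 2208L lie above its PBS samples in each panel, which for Ccl2, Ccl5 and Ccr2 did not pass the adjusted test. The share of all genes that separate in this way was not computed, so the separation is not read as particular to these genes. By limma calls, another measure, 16.5% of all genes were lower in PBS. Ccl5 is lower in 2151R than in 2208L.

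Ccl5 (RANTES), a ligand of Ccr1 that T cells, NK cells and epithelium release, went the other way in 2151R. It was -1.09, -0.97, -1.40 and -1.02 in 2151R. All 8 samples of 2208L lay higher, with a lowest value of -0.32, a median of 0.65 and a highest value of 0.89. The difference was -1.60 (SE 0.50, 3.02-fold, limma adjusted p 0.0173). Although the groups did not overlap, the call was lost against the PBS samples alone (-1.28, limma adjusted p 0.0928). It was also lost without the 3 samples high in muscle genes (-1.42, limma adjusted p 0.0968). The call held in 10 of 12 other alternatives and in each of 12 fits that left out 1 sample. A fit of 2151R and 2208L alone gave the same difference (-1.60, limma adjusted p 8.43e-05). The fit of 15 samples takes its spread from 2225L too, where the SD of Ccl5 was 2.64. It was 0.19 in 2151R and 0.43 in 2208L. In 2225L Ccl5 was -3.19 in replicate 1 and 0.54 in replicate 2, the widest gap of the 9 genes in that model. The call against 2208L (-1.80, SE 0.64, limma adjusted p 0.0462) rested on replicate 1 and was 0.06 (limma adjusted p 0.917) without it. Leaving out any 1 sample of 2208L except replicate 4 of PBS also ended it. PBS minus 3day nt was -0.62 (limma adjusted p 0.0774), with no overlap.

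Ccr2, the receptor of Ccl2, Ccl7 and Ccl12 on inflammatory monocytes, was lowest in 2225L. It was -3.58 and -1.38 in 2225L and 0.30, 0.46, 0.00 and -0.05 in 2151R. The difference was -2.66 (SE 0.76, 6.31-fold, limma adjusted p 0.0111), and -1.56 (limma adjusted p 0.167) without replicate 1 of 2225L. In 2208L Ccr2 was -0.66, -0.72, 0.32 and -2.10 in PBS samples, -1.02 in the ROSEN sample and 0.92, 0.48 and 0.51 in 3day nt samples. Replicate 1 of 2225L lay below all of these and replicate 2 lay within them, and the difference of 2225L from 2208L was -2.19 (SE 0.69, limma adjusted p 0.0268). That call was lost without replicate 1 of 2225L (-1.10, limma adjusted p 0.35), after quantile normalization (-1.96, limma adjusted p 0.0608) and without the 3 samples high in muscle genes (-1.86, limma adjusted p 0.0583). Between 2151R and 2208L the difference was 0.46, with a 95% interval from -0.69 to 1.62, so the higher Ccl2 of 2151R stood beside a Ccr2 difference that did not pass. PBS minus 3day nt was -1.43 (limma adjusted p 0.0745), and -1.80 (limma adjusted p 0.0305) without replicate 3 of PBS.

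Cx3cl1, a chemokine made as a membrane protein on a mucin stalk by epithelium and endothelium, and its receptor Cx3cr1 ran in opposite directions between 2151R and 2208L. The ligand was 0.00, -0.71, -0.64 and -0.31 in 2151R. It was 0.90, 1.32, 1.09 and 0.96 in 2208L PBS, 1.07 in ROSEN and -0.06, 0.11 and 0.53 in 3day nt. All PBS samples exceeded all of 2151R, whereas replicate 1 of 3day nt fell within its range. The difference of 2151R from 2208L was -1.16 (SE 0.29, 2.23-fold, limma adjusted p 0.00494). It was -1.49 against PBS (limma adjusted p 0.000514) and -0.61 against 3day nt (limma adjusted p 0.0779). PBS minus 3day nt was 0.88 (SE 0.18, 1.84-fold, limma adjusted p 0.0134), the only 1 of the 9 genes called higher in PBS samples, and 0.75 (limma adjusted p 0.0503) without replicate 1 of 3day nt. In 2225L Cx3cl1 was -0.95 and 0.15, lower than in 2208L (difference -1.14, SE 0.37, limma adjusted p 0.0322). Without replicate 1 of 2225L it was -0.59 (limma adjusted p 0.359), and without replicate 3 of PBS the call was also lost. Against 2151R the difference was 0.02, with a 95% interval from -0.87 to 0.90.

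Cx3cr1, the fractalkine receptor of patrolling monocytes and tissue macrophages, was 1.61, 0.25, 1.23 and 1.02 in 2151R. Values in 2208L were 0.00, -0.36, 0.24 and -1.17 in PBS, -0.47 in ROSEN and -1.53, -0.86 and -0.82 in 3day nt samples. Each 2151R sample lay above each 2208L sample, the closest being 0.25 and 0.24. The difference was 1.65 (SE 0.42, 3.14-fold, limma adjusted p 0.00539), and it passed against PBS (1.35, limma adjusted p 0.0351) and against 3day nt (2.10, limma adjusted p 0.0053) alone. In 2225L it was -2.58 and -0.38, below 2151R by a difference of -2.51 (SE 0.59, 5.7-fold, limma adjusted p 0.00359), and -1.41 (limma adjusted p 0.0783) without replicate 1. Against 2208L the difference of 2225L was -0.86 (limma adjusted p 0.245), and the samples overlapped. Unlike Ccr2, which had a lower mean in PBS than in 3day nt samples, Cx3cr1 had the higher mean there (-0.32 against -1.07), a difference of 0.75 that did not pass (limma adjusted p 0.152).

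Cxcl12 (SDF-1), mostly a product of fibroblasts and endothelium, gave an order of 2151R, 2208L and 2225L whose direction and calls held in every alternative run. It was 0.57, 0.75, 0.50 and 0.66 in 2151R. In 2208L the lowest value was -1.67, the median -0.87 and the highest 0.00. The 2225L samples lay far below, at -4.67 and -3.51. No pair of these models overlapped: 2151R exceeded 2208L by 1.41 (SE 0.30, 2.66-fold, limma adjusted p 0.00151), and 2225L was below 2208L by a difference of -3.30 (SE 0.38, 9.86-fold, limma adjusted p 3.49e-05) and below 2151R by one of -4.72 (SE 0.42, 26.3-fold, limma adjusted p 1.28e-06). Without replicate 1 of 2225L, the lower sample, the differences were -2.72 and -4.14. Within 2208L, PBS minus 3day nt was 0.46, with a 95% interval from -0.23 to 1.14.

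**Figure D3:**
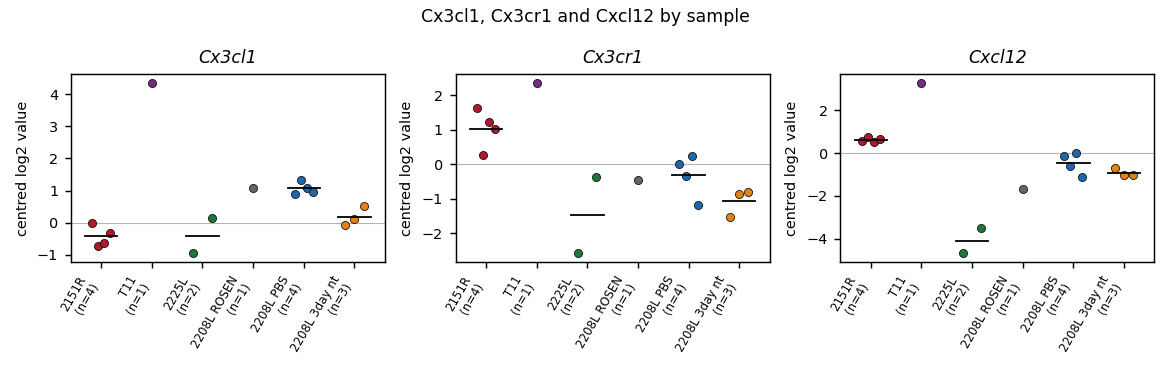
Centred log2 value (y axis) of Cx3cl1, Cx3cr1 and Cxcl12 in each sample, by model or subset (x axis). Points are samples and lines are means. T11 stands alone at 4.36 for Cx3cl1 and 3.28 for Cxcl12, and the 2225L samples are lowest for Cxcl12.

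The receptors of Cxcl12 differed between the same models. Cxcr4, through which Cxcl12 signals, was 4.05 and 4.08 in 2225L, while none of the other samples was above 0.64. It was higher in 2225L than in 2208L by 4.01 (SE 0.27, limma adjusted p 3.08e-07) and than in 2151R by 4.61 (SE 0.29, limma adjusted p 6.28e-08). In 2225L the ligand was thus low where this receptor was high. Ackr3, an atypical receptor that takes up Cxcl12, was -2.28 and -2.93 in 2225L, at a median of -0.80 in 2208L and of 0.82 in 2151R, the same order as Cxcl12. It was called in each pair: 1.60 for 2151R minus 2208L (limma adjusted p 6.7e-05), -1.86 for 2225L minus 2208L (limma adjusted p 0.000392) and -3.46 for 2225L minus 2151R (limma adjusted p 1.87e-06).

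Ccr1, a receptor of Ccl5, was called higher in 2151R than in 2208L, the reverse of this ligand. It ran from 0.69 to 1.05 in 2151R and from -0.71 to 0.24 in 2208L, with no overlap (difference 1.09, limma adjusted p 0.00139). In 2225L it was low, at -2.36 and -1.24, and was called lower than in 2208L (-1.55, limma adjusted p 0.00132) and than in 2151R (-2.64, limma adjusted p 1.99e-05).

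**Figure D4:**
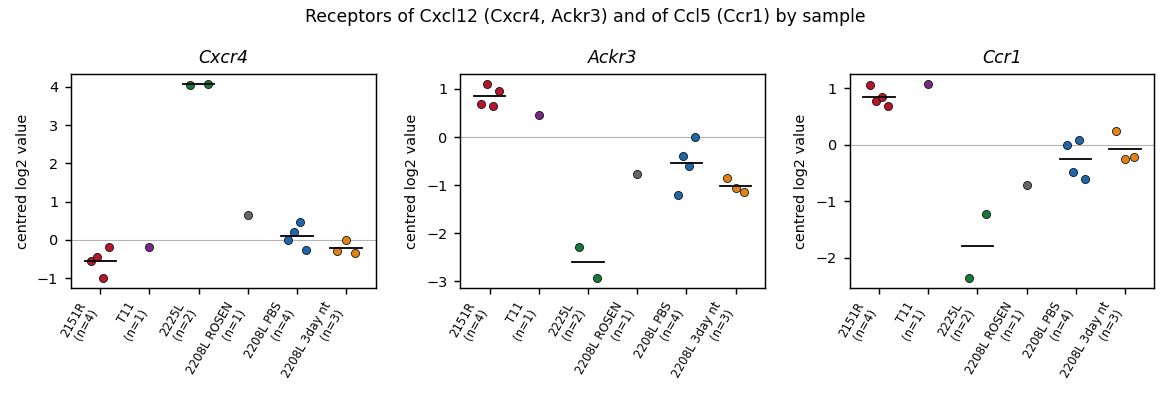
Centred log2 value (y axis) of Cxcr4, Ackr3 and Ccr1 in each sample, by model or subset (x axis). Points are samples and lines are means. Cxcr4 is at 4.05 and 4.08 in 2225L, and Ackr3 and Ccr1 are lowest there.

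T11, a model with 1 sample, carries no test. At 2 of the 9 genes, Cx3cl1 and Cxcl12, it lay at least 1 log2 unit above each of the other 14 samples, which it did at 2.95% of all genes. Cx3cl1 was 4.36 in T11 and at most 1.32 elsewhere, and Cxcl12 was 3.28 and at most 0.75. T11 was thus high in Cx3cl1 where 2151R, the other model with low epithelial markers, was low: T11 minus the mean of 2151R was 4.78 for Cx3cl1 and 2.66 for Cxcl12. T11 also had the highest value of Cx3cr1 (2.36, others up to 1.61), Ccl12 (1.21, others up to 0.60) and Ccr2 (1.19, others up to 0.92). The margins were 0.75, 0.61 and 0.27, short of the 1 log2 unit to which the 2.95% applies. The share of all genes at which T11 was simply the highest was not computed. In T11 Ccl2 (0.54), Ccl7 (0.07) and Ccl5 (0.40) lay inside the range of the other samples, and Ccl8 (-1.14) was lower than all but 2 of them.

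Of 14 further CC ligands listed, 11 were in the table (not Ccl1, Ccl19 or Ccl27a). Shares of all genes, higher and lower, were 26.1% and 22.7% for 2151R against 2208L, and 17.4% and 16.5% for PBS against 3day nt. For 2225L they were 15.6% and 17.3% against 2208L, and 22.8% and 25.8% against 2151R. Between 2151R and 2208L 2 were higher and 2 lower, with Ccl28, an epithelial chemokine, at 3.28, and Ccl20, a ligand of Ccr6, at -4.76 and Ccl17, a ligand of Ccr4, at -3.65. The other higher one was Ccl11 (eotaxin), which lies between Ccl7 and Ccl12 on the chromosome and differed by 1.79 (SE 0.68, limma adjusted p 0.0425). Between PBS and 3day nt 0 were higher and 5 were lower in PBS: Ccl4, Ccl9, Ccl17, Ccl22 and Ccl24. Ccl11 was not among them, with a difference of -0.24 (limma adjusted p 0.708), although its neighbours Ccl7 and Ccl12 were called. In 2225L 2 were lower and 0 higher than in 2208L, and 5 lower and 1 higher than in 2151R.

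Of 15 further receptors and scavengers listed, 10 were in the table. Shares of all genes called are those given for the ligands, and the counts for 2151R and 2208L lie near them. Between 2151R and 2208L 3 were higher, Ackr3 and Ccr1 among them, and 2 lower, Cxcr4 at -0.60 (limma adjusted p 0.0283) and Ccrl2, a receptor that binds chemerin, at -1.85 (limma adjusted p 0.00154). In 2225L 2 were higher and 5 lower than in 2208L, and 2 higher and 4 lower than in 2151R. Between PBS and 3day nt 3 were higher and 2 lower in PBS. Among proteases that cut members, Adam10 and Adam17, which release Cx3cl1 from the membrane, differed between 2151R and 2208L by 0.03 and -0.21, and Dpp4, which clips Cxcl12, by 1.32, none of them called. Adam17 was lower in 2225L than in 2208L by a difference of -1.34 (limma adjusted p 0.000338), and Adam10 was higher in PBS than in 3day nt samples by 0.60 (limma adjusted p 0.0299), as Cx3cl1 was.

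Marker lists of cells that make or follow these chemokines moved with several results. Of 10 macrophage markers, 2151R had 7 higher and 0 lower than 2208L, and 6 were lower in 2225L than in 2208L and 10 lower than in 2151R. Their mean by sample ran from 0.54 to 0.90 in 2151R, -0.74 to 0.04 in 2208L and -1.97 to -1.04 in 2225L, and was 1.19 in T11. The group means of Cx3cr1 had the same order, but its values in 2225L and 2208L overlapped and that difference did not pass. Within 2208L 1 of the 10 was higher and 1 lower in PBS than in 3day nt samples, and the ranges overlapped (-0.72 to -0.05 and -0.39 to 0.04). Of 9 monocyte markers, 2151R had 1 higher and 1 lower than 2208L, and PBS samples likewise against 3day nt samples. In 2225L 3 of them were lower than in 2208L, and 4 were lower and 1 higher than in 2151R. The part of these markers in the differences of the chemokine and receptor genes was not tested.

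Other lists differed as well, to be read beside the same shares of all genes. Of 5 dendritic cell markers 3 were lower in PBS than in 3day nt samples (mean by sample -1.70 to 0.81 and 1.20 to 2.29), as were 2 of 6 T cell markers and 2 of 5 NK cell markers, while 4 of 5 neutrophil markers were higher in PBS. Beside its lower Ccl5, 2151R had 3 of 5 NK cell markers and 1 of 6 T cell markers above 2208L. Of 6 fibroblast markers 3 were higher in 2151R than in 2208L, with 5 of 6 endothelial markers, beside the higher Cxcl12. In 2225L 0 of the 6 fibroblast and 0 of the 6 endothelial markers were called against 2208L (median differences -0.51 and 0.14), where Cxcl12 differed by -3.30. Against 2151R 3 of the 6 fibroblast markers and 1 of the 6 endothelial markers were lower in 2225L. Of 4 adipocyte markers 1 was higher in 2151R than in 2208L and 0 were called in the other comparisons, where their median differences were nevertheless -4.80 for PBS minus 3day nt, -4.43 for 2225L minus 2151R and -0.16 for 2225L minus 2208L. Their mean by sample was -2.46, -3.57, 2.55 and -3.01 in PBS samples, 2.45 to 2.85 in 3day nt samples and 1.87 to 5.31 in 2151R. In 2225L replicate 1 was at -2.53 and replicate 2 at 2.46. Replicate 3 of PBS thus lay within the 3day nt range and the other PBS samples far below it, beside the differences in Ccl7, Ccl8 and Ccl12, and the part of these genes in them was not tested. Of 3 B cell markers, 2 were higher in 2225L than in either model and 1 was lower in PBS than in 3day nt samples. Because each gene is centred, whether a marker was at 0 cannot be read.

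**Figure D5:**
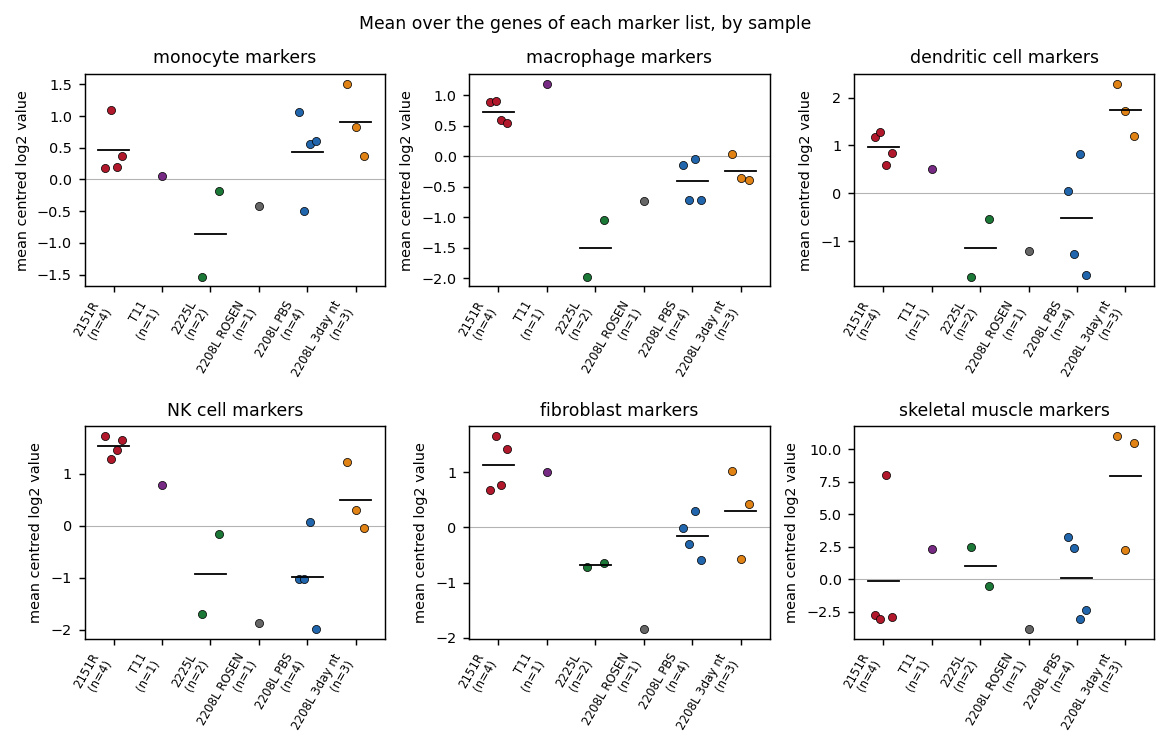
Mean centred log2 value over each marker list (y axis) in each sample, by model or subset (x axis), for monocyte, macrophage, dendritic cell, NK cell, fibroblast and skeletal muscle markers. Points are samples and lines are means. Macrophage markers are highest in T11 (1.19) and lowest in 2225L, and muscle markers reach 7.99 to 11.01 in 3 samples.

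For each of the 9 genes, the genes with the most similar profile over the 15 samples were ranked by Pearson correlation among 14681 genes. These are descriptions over samples that share models and libraries, and the pooled values mix differences between models with those within them. Ccl8 was closest to Cd209e (r = 0.97, rho = 0.96), Cd209d (r = 0.90, rho = 0.85) and Retnla (r = 0.89, rho = 0.86). The first 2 encode lectins of the DC-SIGN family, and Retnla encodes a secreted protein of alternatively activated macrophages. Ccr2 was closest to Il10ra (r = 0.98, rho = 0.95), the interleukin 10 receptor of leukocytes, then to Sp110 and to C1qc, a complement chain made by macrophages (r = 0.97 and 0.96). Cx3cr1 was closest to Dhx36, P2ry13 and Pik3r2 (r = 0.96, 0.96 and 0.96), of which P2ry13 encodes a nucleotide receptor of myeloid cells. Ccl5 was closest to AW112010, a gene induced by interferon (r = 0.96, rho = 0.92), then Ypel5 and Ubl3 (r = 0.95 and 0.95). Without the 2 samples farthest from the median of the member, r was 0.95 for Cd209e, 0.95 for Il10ra, 0.94 for Dhx36 and 0.95 for AW112010. It was 0.86 for Cd209d and 0.79 for Retnla, 0.94 for Sp110 and 0.90 for C1qc. For P2ry13 and Pik3r2 it was 0.93 and 0.91, and for Ypel5 and Ubl3 0.88 and 0.89.

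Among the remaining members, Ccl2 was closest to Selenop, Slc50a1 and Slc7a8 (r = 0.95 for each), Ccl7 to Alox5ap (r = 0.95, rho = 0.96), which encodes the protein that presents arachidonic acid for leukotriene synthesis in myeloid cells, then Rnase6 and Nts (r = 0.92 for each), and Ccl12 to Bdh2, Zeb2os and Ube2l3 (r = 0.95, 0.93 and 0.93). Cx3cl1 was closest to Itgb5, Megf10 and Tgfb3 (r = 0.95, 0.95 and 0.93), and without the 2 farthest samples, T11 among them, r fell to 0.92, 0.90 and 0.76. Cxcl12 was closest to Zmat1, Inpp4b and Zfp36l2 (r = 0.98, 0.97 and 0.97). Without the 2 samples farthest for Ccl7, r was 0.93 for Alox5ap, 0.83 for Rnase6 and 0.87 for Nts. No member was among the 3 closest genes of another member.

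Promoter windows from RefSeq (GRCm38.p6, 250 bases before to 50 after the start site) matched 6 of the 9 members (Ccl8, Ccl12, Ccr2, Cx3cl1, Cx3cr1 and Cxcl12). The windows of Ccl12 and Ccl8 are printed because these neighbours were both lower in PBS than in 3day nt samples, and those of Cx3cl1 and Cxcl12 because these followed other patterns. They run 5′ to 3′ on the plus strand, with TATAAA (reverse TTTATA) and GGGCGG (reverse CCGCCC) in capitals.
Ccl12, chr11:82101595-82101894: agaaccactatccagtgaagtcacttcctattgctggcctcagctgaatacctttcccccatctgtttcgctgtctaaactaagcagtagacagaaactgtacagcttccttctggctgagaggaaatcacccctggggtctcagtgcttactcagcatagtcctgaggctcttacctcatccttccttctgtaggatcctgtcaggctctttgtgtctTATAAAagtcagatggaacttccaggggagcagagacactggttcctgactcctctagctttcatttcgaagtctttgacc
Ccl8, chr11:82114935-82115234: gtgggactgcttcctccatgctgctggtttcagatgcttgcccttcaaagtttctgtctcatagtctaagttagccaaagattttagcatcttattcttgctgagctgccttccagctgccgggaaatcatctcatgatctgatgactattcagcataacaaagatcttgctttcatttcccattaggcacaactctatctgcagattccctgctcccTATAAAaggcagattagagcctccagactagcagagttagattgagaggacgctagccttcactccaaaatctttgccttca
Cx3cl1, chr8:94771930-94772229: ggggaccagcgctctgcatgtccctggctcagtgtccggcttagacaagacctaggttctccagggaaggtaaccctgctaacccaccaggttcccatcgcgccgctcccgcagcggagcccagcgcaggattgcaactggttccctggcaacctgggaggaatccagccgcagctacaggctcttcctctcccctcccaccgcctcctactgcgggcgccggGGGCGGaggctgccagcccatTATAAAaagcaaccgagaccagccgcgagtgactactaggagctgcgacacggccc
Cxcl12, chr6:117168285-117168584: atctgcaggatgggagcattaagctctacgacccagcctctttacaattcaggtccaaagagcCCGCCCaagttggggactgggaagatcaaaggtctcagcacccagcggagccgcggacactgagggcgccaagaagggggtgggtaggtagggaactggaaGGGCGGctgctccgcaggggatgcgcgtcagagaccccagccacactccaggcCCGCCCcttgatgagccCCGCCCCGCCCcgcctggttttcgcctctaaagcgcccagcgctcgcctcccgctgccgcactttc
Counted from the start site, the first base of TATAAA was at -31 in Ccl12, -32 in Ccl8 and -6 in Cx3cl1, and the motif was in 13.6% of all 32851 windows of this length on either strand. The start site of the Cx3cl1 window lies inside the gene as GENCODE M21 places it (from 94772009). Its -6 is therefore counted from another start than the GENCODE one, unlike the positions in Ccl12 and Ccl8. GGGCGG, the core of a GC box, was matched 5 times in the window of Cxcl12 and once in that of Cx3cl1, and was in 35.7% of all windows. The windows of Ccl12 and Ccl8 were 54.9% identical over an alignment of 319 columns, with a longest shared run of 11 bases, and held 48.0% and 44.7% G or C, against 64.7% each for Cx3cl1 and Cxcl12 and a median of 52.7% over all windows. TGANTCA (the AP-1 motif, the same on both strands) was in 7.81% of all windows and in none of the 6 members' windows. These matches describe the letters of the windows only.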

How the data were processed

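The deposited values are on a log2 scale, 1 for each of 17271 genes in each of 15 samples, and centred per gene on a median, as the table's name and values show. The submitters' processing notes name mm10, STAR and Salmon without versions. The roles of these tools, filters, the offset before the logarithm and the normalization between samples are not given in the sources used here. The median over these 15 samples was 0 at 1124 genes, so the centring used another set of samples. No member had a repeated value. Values were tested as deposited with limma 3.58.1 in R 4.3.3 (lmFit, eBayes), Benjamini-Hochberg adjusted over all genes. The model comparisons used 1 fit of 15 samples with a mean per model. PBS and 3day nt were compared in a separate fit of 7 samples. The fits were run on simulated data with independent samples, which does not test how calls depend on single samples or libraries.

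The members, gene lists and tests were chosen with earlier results of these data known. All members are described. Of other lists, the 3 called genes that differed most between 2151R and 2208L were named, with Ccr1, Cxcr4, Ackr3, Adam10, Adam17 and lists of 3 genes. Ccl11 and the 5 ligands called within 2208L were named after their values were seen. For each member the 3 most correlated genes were named, without predicted genes. The coding sequences were aligned with biopython 1.88. Replicates were numbered in accession order and pair no samples. Alternatives were another scaling, trend, sample weights, a filter on small SD, a minimum difference, other fits and samples left out.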

Additional observations from a re-analysis of the deposited data

Results flagged for a closer look

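Across the 9 genes, 27 groups of 4 or 8 values were searched for 1 value set apart by a wide gap. This was found in 2. At 1 in 20, 1.35 would be flagged by chance in independent and uniform groups. These groups are neither, because 2208L mixes its subsets and also contains the PBS samples. Ccl2 was 1.03 in replicate 1 of 2208L 3day nt, while the other 7 samples of 2208L lay from -1.70 to -0.54. That sample is also the highest of the series in skeletal muscle markers (mean 11.01), and the part of these in the value was not tested. Ccl12 was -2.58 in replicate 4 of 2208L PBS, with the other 3 PBS samples from -1.26 to -1.02.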

How the results depend on the processing

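Between 2151R and 2208L 5 of the 9 genes were called in each of 12 fits that left out 1 sample. The same fits called 7033 to 8519 of all 17271 genes. How many genes kept their call in all 12 fits was not computed. The steady count of 5 is therefore not read as particular to the 9. The genes called of all tested went from 8434 to 5151 when a difference of at least 1 log2 unit was also required, and for PBS and 3day nt from 5864 to 2208. Sample weights gave 2158 genes and 1 of the 9 for 2225L and 2208L (5687 and 4 without weights), 5252 and 2 for 2225L and 2151R (8398 and 4), and 11692 and 9 for PBS and 3day nt (5864 and 4). Without the 3 samples high in muscle genes, 98 genes and 0 of the 9 were called for PBS and 3day nt, and 2 of the 9 for 2225L and 2208L, where a fit of those models alone called 1. Leaving out 1 sample gave 1 to 5 of the 9 for 2225L and 2208L (1 without replicate 1 of 2225L, 2 without replicate 3 of PBS) and 2 to 5 for 2225L and 2151R (2 without replicate 1 of 2225L). For PBS and 3day nt it gave 3 to 6 of the 9 and 2379 to 6800 genes (2379 and 2950 without replicates 3 and 1 of 3day nt, 3886 and 3848 without replicates 1 and 2 of PBS).

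Some differences changed sign. For 2151R minus 2208L these were Ccl7 (-0.97), Ccl12 (-0.44) and Ccr2 (-0.46) against 3day nt only, and Ccl8 without the samples high in muscle genes (0.70), with 2208L as the mean of its subsets (0.099) and against PBS only (1.38). For 2225L minus 2208L, Ccl2 changed after quantile normalization (0.25), with sample weights (0.054), without the samples high in muscle genes (0.16) and against PBS only (0.26). Ccl8 changed under the last 3 of these (0.36, 0.67 and 1.29), with the library prefix as a covariate (0.12) and with 2208L as the mean of its subsets (0.018), and Ccl12 against PBS only (0.23). For 2225L minus 2151R, Ccl8 changed with sample weights (0.40) and the library prefix (0.53), and Cx3cl1 with sample weights (-0.065), the library prefix (-0.31) and without the samples high in muscle genes (-0.059). With 1 sample left out, the differences that changed sign ran from -0.83 to 0.24 for Ccl8 in 2151R minus 2208L. In 2225L minus 2208L they ran from -0.85 to 0.37 for Ccl2, -3.67 to 0.064 for Ccl5, -1.07 to 0.40 for Ccl8, -1.32 to 0.15 for Ccl12 and -1.96 to 0.24 for Cx3cr1. In 2225L minus 2151R they ran from -2.08 to 1.66 for Ccl5, -0.82 to 0.65 for Ccl8 and -0.53 to 0.57 for Cx3cl1. The cause was not tested. No paired analysis was possible because no replicate number is shared between groups in the titles. The depth is unknown, so what it limits could not be given.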

Other observations

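Genes that induce these chemokines, or carry that signal, did not move as 1 group. Of 13 listed, 12 were in the table (not Ifng), and between 2151R and 2208L 5 were higher and 3 lower by limma (adjusted p under 0.05). Of all genes, 26.1% were higher and 22.7% lower, and shares for the other comparisons are those given for the ligands. Nfkb1, a subunit of NF-kappaB, was higher in 2151R by 2.02 (SE 0.16), while the cytokines Il1b and Tnf were lower by differences of -1.37 (SE 0.21) and -1.31 (SE 0.28). In 2225L 1 was higher and 4 lower than in 2208L, and 1 higher and 6 lower than in 2151R. Between PBS and 3day nt samples 0 were higher and 4 lower in PBS.

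Of the 6 genes of the table nearest to the stretch from Ccl2 to Ccl8, 1 was lower in PBS than in 3day nt. Ccl7, Ccl12 and Ccl8 were lower too, and 1 of the 6 was higher. Of all genes, 16.5% were lower and 17.4% higher. The 3 genes on each side were picked by position after the member values were seen. Between PBS and 3day nt samples, Myo1d differed by 1.02 (limma adjusted p 0.00902) and Gm11423 by -1.07 (limma adjusted p 0.00588), and Cdk5r1, Tmem98, Zfp830 and Lig3 were not called.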
